A study of Mus musculus with 20 samples.

Results

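At 234 places next to protein-coding genes in mouse myoblasts, the transcription factor ATF4 had a peak both without added stress and under stress of the endoplasmic reticulum (ER). These regions were selected on the measured lists themselves. Each is a peak of the thapsigargin list that shared at least 1 bp with a peak of the DMSO list, and its centre lay within 1 kb of either end of a protein-coding gene. They were 234 of 8619 thapsigargin peaks, and they touched 276 of 21631 protein-coding genes. The cells were C2C12, an established mouse myoblast line, of wild-type genotype in every group, kept for 6 h in DMSO (the solvent control) or in 100 nM thapsigargin, which blocks calcium uptake into the ER. ATF4 was mapped by CUT&Tag, in which an antibody tethers a transposase that cuts and tags the DNA around the bound protein. The series had 20 samples in 10 groups of 2 replicates, and the results here rest on 2 groups, each represented by 1 deposited ATF4 peak list. The labels do not say whether the replicates were separate cultures.

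ATF4 is a basic leucine zipper (bZIP) factor whose protein is made when the integrated stress response slows general translation. It binds DNA as a dimer, often with a C/EBP protein, at composite elements that join a C/EBP part to a CRE-like part. Its known targets take up and make amino acids, charge tRNAs, supply one-carbon units and feed back on the stress response.

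The composite core TGATGCAA was searched on both strands of RefSeq promoter windows of the build GRCm38.p6 (mm10). Each window runs from 250 bases before to 50 bases after an annotated start, 300 bp in all. The sites below are the 10 that the naming rule gave, each inside the ATF4 peak of both conditions, and are shown because they are the letters that the promoter counts rest on. Capitals mark the core. Each line is written 5′ to 3′ on the strand named, and the coordinates are those of the capitals.
Nupr1, chr7:126625573-126625580, plus strand: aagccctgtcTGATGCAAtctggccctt
Got1, chr19:43524700-43524707, plus strand: gaggcttgtaTGATGCAAccaatgcaat
Chac1, chr2:119351049-119351056, minus strand: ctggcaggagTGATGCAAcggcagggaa
Herpud1, chr8:94386317-94386324, minus strand: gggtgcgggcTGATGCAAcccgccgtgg
Slc1a4, chr11:20332710-20332717, plus strand: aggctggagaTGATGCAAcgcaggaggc
Iars, chr13:49682137-49682144, minus strand: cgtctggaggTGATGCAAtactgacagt
Jdp2, chr12:85599383-85599390, plus strand: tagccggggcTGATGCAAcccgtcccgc
Tars, chr15:11399666-11399673, plus strand: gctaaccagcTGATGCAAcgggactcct
Atf3, chr1:191183436-191183443, plus strand: gcggacttggTGATGCAAgtgcgagaag
Yars, chr4:129189906-129189913, plus strand: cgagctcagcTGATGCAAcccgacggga

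A second set is shown for the word TGACGCAA, which differs from the core at position 4 (T4C, counted from 1 at the 5′ end). This word was picked after all 8-base words had been ranked on these same promoters, so the sites illustrate that choice. Capitals mark the word.
Herpud1, chr8:94386299-94386306, plus strand: ggactcaggaTGACGCAAccacggcggg
Ubr4, chr4:139380604-139380611, minus strand: ggggcggaagTGACGCAAtcgtgcgcgt
Bbs5, chr2:69647123-69647130, plus strand: caagaccaaaTGACGCAAacgggctggg
Bud31, chr5:145140326-145140333, plus strand: acacctaagaTGACGCAAtctccgcgcg
Samd8, chr14:21750461-21750468, plus strand: tgcttgggcaTGACGCAAgcgctctccc
Tecpr1, chr5:144223640-144223647, plus strand: agattcggagTGACGCAActgcctggaa
Ttc9c, chr19:8819337-8819344, minus strand: ttgggtggcaTGACGCAAtgcgcgtgcc
Zgrf1, chr3:127553265-127553272, minus strand: gctactcgaaTGACGCAAatttccgccg
Chek1, chr9:36726626-36726633, minus strand: tgcgacagcaTGACGCAAgcaggttttg

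The looser pattern TGATGNAA, with any sixth base, matched at 45 of the 232 genes with a promoter window, and the exact core at 20. Asns, Gars and Trib3 are shown from among the genes that match the pattern and lack the exact core. Asns makes asparagine, Gars charges glycine tRNA, and Trib3 encodes a pseudokinase that feeds back on the stress response. Capitals mark the match.
Asns, chr6:7693225-7693232, minus strand: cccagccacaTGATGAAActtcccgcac
Gars, chr6:55037971-55037978, minus strand: gcccggtgcaTGATGAAAtagcgcagcc
Trib3, chr2:152344039-152344046, plus strand: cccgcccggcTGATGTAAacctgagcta

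Herpud1, Chac1 and Atf3 each held 2 of the words discussed here, so the 250 bases before the annotated start are shown whole, on the strand of the gene. Capitals mark the words, which read TTGCATCA, TTGCGTCA or TTACGTCA where they lie on the other strand. Herpud1 encodes an ER membrane protein of ER-associated degradation, and its 2 words started 18 bp apart. Chac1 encodes an enzyme that degrades glutathione, and Atf3 a stress-induced bZIP factor.
Herpud1, chr8:94386179-94386428, plus strand: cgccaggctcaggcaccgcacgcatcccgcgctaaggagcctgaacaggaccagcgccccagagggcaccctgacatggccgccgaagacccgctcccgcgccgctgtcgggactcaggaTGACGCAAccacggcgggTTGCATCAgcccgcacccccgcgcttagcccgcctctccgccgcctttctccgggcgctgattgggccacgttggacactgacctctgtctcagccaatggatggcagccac
Chac1, chr2:119350992-119351241, plus strand: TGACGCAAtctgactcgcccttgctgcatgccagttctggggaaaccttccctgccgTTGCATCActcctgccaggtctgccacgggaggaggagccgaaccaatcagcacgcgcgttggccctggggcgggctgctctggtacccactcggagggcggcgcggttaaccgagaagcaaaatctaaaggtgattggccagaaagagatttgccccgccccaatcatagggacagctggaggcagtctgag
Atf3, chr1:191183334-191183583, minus strand: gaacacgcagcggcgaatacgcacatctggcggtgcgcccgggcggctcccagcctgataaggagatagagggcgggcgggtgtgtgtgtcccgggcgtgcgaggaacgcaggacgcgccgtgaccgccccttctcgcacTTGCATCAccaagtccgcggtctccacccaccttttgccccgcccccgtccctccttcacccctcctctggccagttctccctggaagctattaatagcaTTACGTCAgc

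The regions were a small part of the thapsigargin list. Of 8619 thapsigargin peaks, 797 (9.25%) overlapped a DMSO peak. At gene ends 234 of 2739 did (8.54%), which left 2505 thapsigargin-only peaks at gene ends and 563 both-condition peaks elsewhere. Of all 21631 protein-coding genes, 276 (1.28%) had such a region at an end. These shares follow from the rule and are given as description. With 1 list per condition there was no replicate error and no test, read depth is not known for either list, and the interval of a share (95% Wilson) covers counting error only. Of the 234 regions, 192 lay at 1 gene and 42 at 2 genes, so the genes of a pair share 1 peak and are not separate observations. The regions nearest inside the limit lay at Trim47 (970.5 bp from the gene end) and Vars (986 bp), and the both-condition peaks nearest outside it lay at Fcrlb (1001.5 bp) and Gadd45a (1003.5 bp).

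The list with the most regions was that of the tRNA charging machinery. Of 20 cytosolic aminoacyl-tRNA synthetase genes, which encode the enzymes that load tRNAs with amino acids, 12 had a region in both conditions, 1 had a peak only in thapsigargin and 7 had none. In every list a peak counted only if its centre lay within 1 kb of a gene end, and none means no thapsigargin peak there. With centres within 500 bp 8 of the 12 remained in the count, and with gene starts only 7 did, the number of the 12 with a promoter entry and so a known strand. The 12 were Sars, Mars1, Vars, Gars, Iars, Tars, Farsb, Lars, Wars, Yars, Nars and Cars. Of 17 mitochondrial synthetase genes, 0 had a region in both conditions and 3 had a thapsigargin-only peak. The lists were chosen with earlier results of these data known and hold textbook ATF4 targets, and the 1.28% of all genes comes from the contrast that chose the regions, so nothing is read from the difference to it.

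The synthetase peaks were wider in thapsigargin, most of them only slightly and those at Farsb and Lars by more. The Sars peak, at the seryl-tRNA synthetase gene, measured 1687 bp under DMSO and 2106 bp under thapsigargin. At Mars1, for methionine, the widths were 1927 bp (chr10:127310527-127312453) and 2069 bp (chr10:127310419-127312487). At Gars they were 1806 bp (chr6:55037510-55039315) and 1969 bp (chr6:55037401-55039369). All 12 were wider in thapsigargin, by a median of 1.18 times (range 1.02 at Yars to 1.70 at Farsb). In DMSO their median was 1257 bp, against 887 bp over all regions, and in thapsigargin it was 1491.5 bp, against 1390.5 bp.

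Among 20 stress transcription factor genes, 8 had a region in both conditions, 7 had a thapsigargin-only peak and 5 had none. With centres within 500 bp 4 had a region, and with the 2 centres within 100 bp of each other 5 did. In thapsigargin the widest was at Atf6, an ER-anchored sensor, with 1110 bp in DMSO and 2450 bp in thapsigargin. The region at Ddit3, which encodes CHOP and shares its peak with Mbd6, was 1885 bp wide in DMSO and 2420 bp in thapsigargin. Nupr1, a small stress-induced chromatin protein gene, had 1609 bp and 1682 bp. Xbp1, whose mRNA is spliced by the sensor IRE1, had 1266 bp and 1330 bp. In this group the widths were nearly equal at Nupr1, Xbp1 and Cebpg (877 bp and 978 bp), while the Atf6 peak was over 2 times as wide in thapsigargin. Jdp2, Atf3 and Cebpb, all bZIP genes, made up the rest of the 8, with 1384 bp, 1177 bp and 767 bp in DMSO and 1669 bp, 1396 bp and 1355 bp in thapsigargin.

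Of 24 stress response regulator genes, 5 had a region in both conditions, 11 had a thapsigargin-only peak and 8 had none. Gadd45a, counted among the 11, also had a both-condition peak 1003.5 bp from its end, just outside the limit. With a window of 3 kb, 7 of the 24 had a region in both conditions. The Herpud1 peaks spanned 1758 bp in DMSO and 2073 bp in thapsigargin. Stc2, a secreted glycoprotein gene, had 1266 bp and 1776 bp, and Ppp1r15b, which encodes a phosphatase subunit acting on eIF2, had 1270 bp and 1432 bp. Chac1 had 1364 bp and 1487 bp, and Trib3 had 954 bp and 1615 bp. Trib3 showed the largest proportional difference of these 5, 1.69 times.

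Genes of amino acid supply made up 2 further groups. Of 22 amino acid synthesis genes, 7 had a region in both conditions, 4 had a thapsigargin-only peak and 11 had none. Aldh18a1, for proline synthesis, had 1570 bp in DMSO and 2272 bp in thapsigargin, and Psat1, for serine synthesis, had 936 bp and 2105 bp. Phgdh, the first enzyme of the serine pathway, had 1337 bp and 1513 bp. The transaminase genes Bcat1, Gpt2 and Got1 had 1353 bp, 678 bp and 987 bp in DMSO and 1656 bp, 1443 bp and 1290 bp in thapsigargin. The Asns region was the narrowest of the 7 in thapsigargin, at 1190 bp, with 1029 bp in DMSO. The ratio of widths therefore ran from 1.13 at Phgdh to 2.25 at Psat1 within 1 pathway. Of 20 amino acid transporter genes, 5 had a region in both conditions and 3 a thapsigargin-only peak. Slc6a9, the glycine transporter GLYT1, had 1 thapsigargin peak of 2089 bp over 2 DMSO peaks of 912 bp and 818 bp, so the 234 regions form 235 pairs. Slc7a1, a transporter of cationic amino acids, had 1643 bp and 1739 bp, and Slc38a2, of neutral amino acids, had 1101 bp and 1996 bp. Slc1a4 and Slc38a7 had 1409 bp and 1287 bp in DMSO and 1613 bp and 1582 bp in thapsigargin.

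Of 14 genes of one-carbon metabolism, 5 had a region in both conditions and 3 a thapsigargin-only peak. With centres within 500 bp 1 had a region, and with gene starts only 3 did. The mitochondrial folate enzyme genes Shmt2, Mthfd2, Mthfd1l and Aldh1l2 had 1766 bp, 1191 bp, 1202 bp and 1306 bp in thapsigargin and 1568 bp, 535 bp, 991 bp and 1193 bp in DMSO. Mthfd2 shared its peak with the neighbouring gene Mob1a.

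The other lists are given with both counts. Over all gene-end peaks, 234 of 2739 (8.54%) were in both conditions, so a list with more thapsigargin-only peaks does not stand apart by that. Of 26 genes for ER chaperones and ER-associated degradation, 1 (Herpud1) had a region in both conditions and 14 had a thapsigargin-only peak. Of 23 translation factor genes the counts were 3 (Eif1, Eif2s2 and Eif3c) and 12, and of 20 autophagy and lysosome genes they were 2 (Becn1 and Atg16l1) and 10. Of 17 glutathione and redox genes they were 2 (Chac1 and Hmox1, the heme oxygenase gene) and 5. Of 10 mitochondrial proteostasis genes they were 2 (the protease gene Lonp1 and the chaperone gene Hspa9) and 3. Of 10 secreted stress factor genes they were 1 (Stc2) and 2, and of 11 cell death genes they were 0 and 1. No thapsigargin peak was centred within 1 kb of an end of any of 26 skeletal muscle identity genes or 22 marker genes of other cell types. DMSO peaks were not searched separately at these genes. These counts therefore give no check of the labelled cell type. In all, 50 of 296 listed genes had a region in both conditions, and 226 of the 276 genes were in no list.

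**Figure D1:**
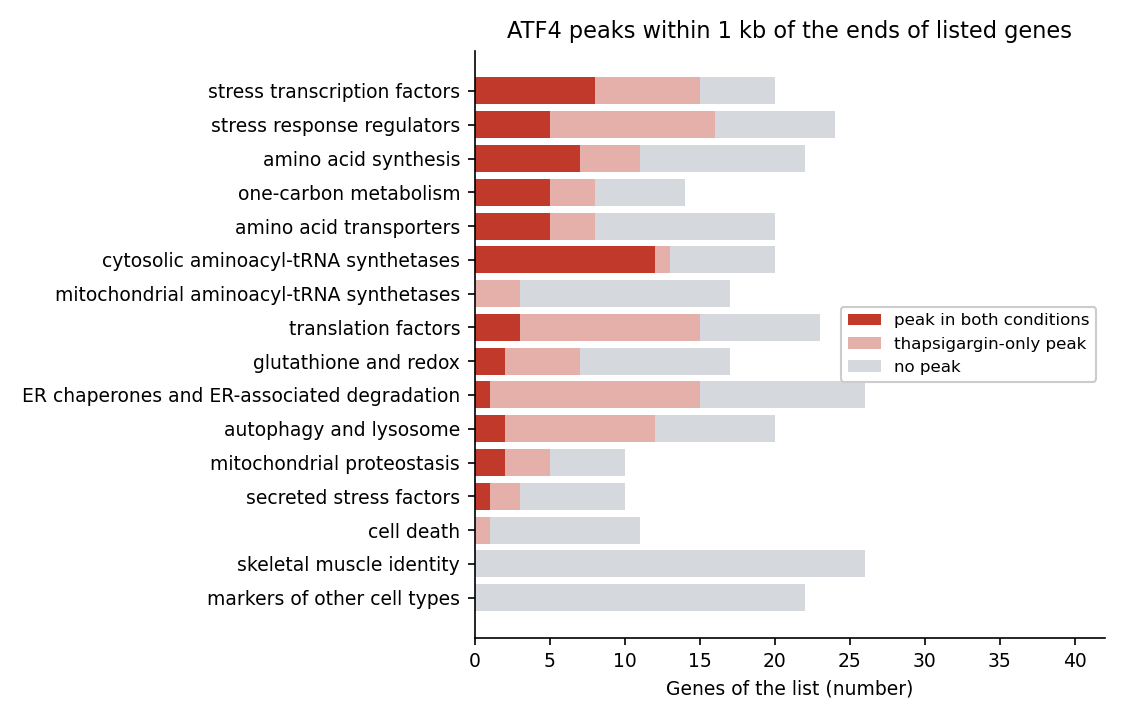
Number of genes (x axis) of each of 16 lists (y axis) with a peak in both conditions, a thapsigargin-only peak or no peak within 1 kb of a gene end. The bar of the cytosolic synthetases has 12 genes with a peak in both conditions, and the bar of the ER chaperones has 1 such gene and 14 with a thapsigargin-only peak.

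Across the regions the thapsigargin peak was usually the wider and enclosed the DMSO peak. The median width was 1390.5 bp in thapsigargin (quartiles 1102.75 to 1616.5) and 887 bp in DMSO (quartiles 637.5 to 1114.5). The median ratio was 1.52 (quartiles 1.25 to 1.94), and in 209 of 235 pairs (88.9%, 84.3% to 92.3%) the DMSO peak lay inside the thapsigargin peak. The centres were a median of 84.5 bp apart. Both-condition peaks away from gene ends had much the same shape, with medians of 1372 bp and 837.5 bp, a ratio of 1.58 and 88.1% nested. Thapsigargin-only peaks at gene ends had a median width of 996 bp. Width took part in choosing the regions, because a wider peak has more chances to overlap, so these values carry no test.

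The DMSO peak was the wider in 6 of 235 pairs. Of these the largest difference was at Pole4, a subunit gene of a DNA polymerase, with 788 bp in DMSO and 544 bp in thapsigargin. Hmgb2, a chromatin protein gene, had 1107 bp and 1003 bp, and Pck2, the mitochondrial PEP carboxykinase gene, had 1430 bp and 1389 bp. The other three, AW209491, Aldh3a2 and Eif3c, differed by less, with 975 bp, 892 bp and 888 bp in DMSO and 962 bp, 882 bp and 887 bp in thapsigargin. Widths were also nearly equal at Tbce, a tubulin cofactor gene (1406 bp and 1440 bp), Hnrnpul2 (1530 bp and 1578 bp) and Ran, the nuclear transport GTPase gene (1454 bp and 1504 bp). At the other extreme, the thapsigargin peak was over 2 times as wide in 54 of 235 pairs (23.0%). Coa7, a gene for cytochrome oxidase assembly, had 252 bp in DMSO and 1564 bp in thapsigargin, and Setd5 had 292 bp and 1777 bp. The next largest ratios were at Ccni (4.35), Brat1 (3.97), Zbtb21 (3.89), Ogfod2 (3.78), Acad9 (3.60), the autophagy gene Becn1 (3.54), Cnn3 (3.28) and the purine synthesis pair Ppat and Paics (3.27).

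The 50 regions with a listed gene had median widths of 1203 bp (DMSO) and 1581.5 bp (thapsigargin), and the median ratio was 1.22. The 184 without one had 807 bp, 1339.5 bp and 1.58. The listed regions were wider in both conditions, and their ratio was nearer to 1. The widest DMSO peaks lay at Serpinf1, a secreted serpin gene (1964 bp, 2113 bp in thapsigargin), Mars1, Ddit3, Gars, Herpud1, Vars, Sars, Slc7a1, Nupr1 and the shared region of Mc1r and Tubb3 (1601 bp, 2359 bp in thapsigargin). Besides Atf6 and Ddit3, wide thapsigargin peaks lay at the collagen receptor gene Ddr2 (2472 bp, 1354 bp in DMSO), at Apba3 and Mrpl54, which share 1 peak (2462 bp, 973 bp in DMSO), at the RNA-binding protein gene Rbm4 (2189 bp, 1365 bp in DMSO) and at the kinase gene Mapkapk5 (2119 bp, 972 bp in DMSO). The narrowest lay at Alyref2 (396 bp, 322 bp in DMSO). Of the 10 widest DMSO peaks, all except Serpinf1 and Mc1r/Tubb3 belong to the lists.

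**Figure D2:**
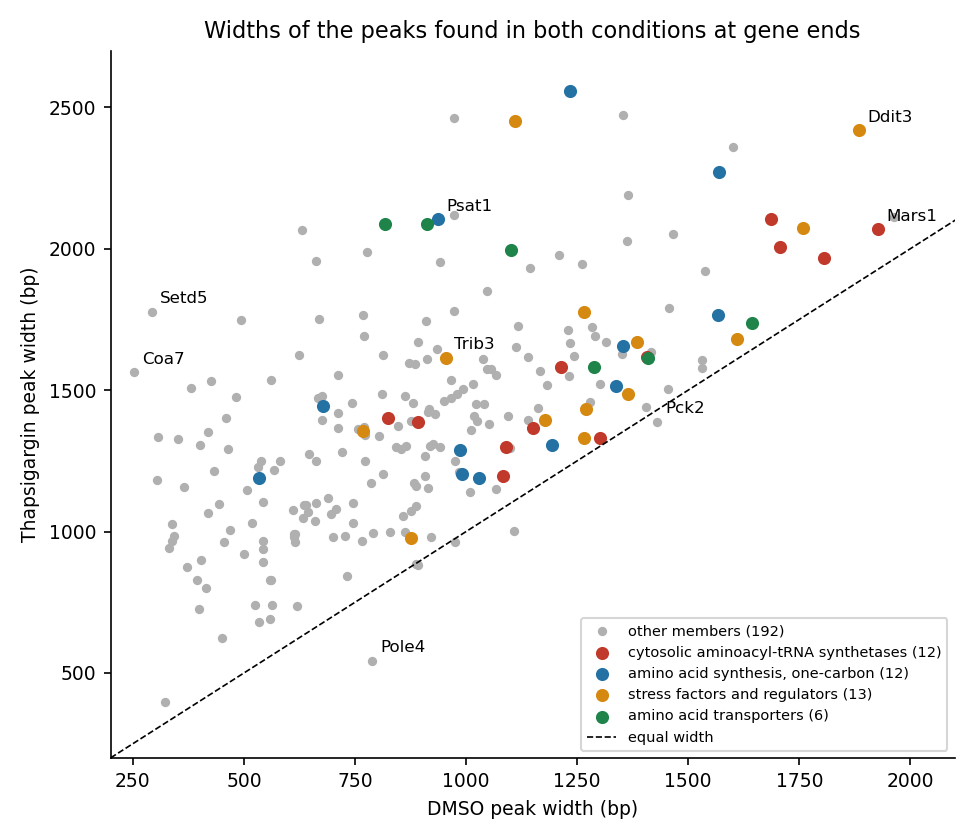
Width of the DMSO peak (x axis, bp) and of the thapsigargin peak (y axis, bp) for the 235 pairs, with points coloured by gene list. Most points lie above the line of equal width. The transporter colour has 6 points for 5 genes because the Slc6a9 peak overlaps 2 DMSO peaks.

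Most regions sat over a gene start. A strand was known for the genes at 200 regions, and 192 of these (96.0%, 92.3% to 98.0%) had a start within 1 kb, against 2011 of 2087 thapsigargin-only peaks at gene ends (96.4%). The 8 others lay at a 3′ end, with no start of a gene of known strand within 1 kb. The thapsigargin centre lay a median of 112 bp into the gene from the start, and the DMSO centre 113.5 bp. The thapsigargin peak covered the start itself in 172 of 193 pairs (89.1%) and the DMSO peak in 140 (72.5%). The thapsigargin peak reached a median of 194 bp farther upstream and 205 bp farther downstream than the DMSO peak, and the downstream extension was the larger in 93 of 193 pairs (48.2%, 41.2% to 55.2%), so neither side prevailed. Starts on both strands lay within 1 kb of 28 of 234 regions (11.97%), against 13.9% of the thapsigargin-only peaks.

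The regions were spread more widely around the gene end than the other thapsigargin peaks. A centre within 500 bp of a gene end was found for 170 of 234 (72.6%, 66.6% to 78.0%), against 84.4% (83.0% to 85.8%) of 2505 thapsigargin-only peaks. Among the examples, the thapsigargin centre lay 333.5 bp into Mars1, 383.5 bp into Gars, 788 bp into Shmt2 and 724.5 bp into Phgdh. The Herpud1 centre lay 134.5 bp before the start, and at Ddit3 it lay 332 bp before it.

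**Figure D3:**
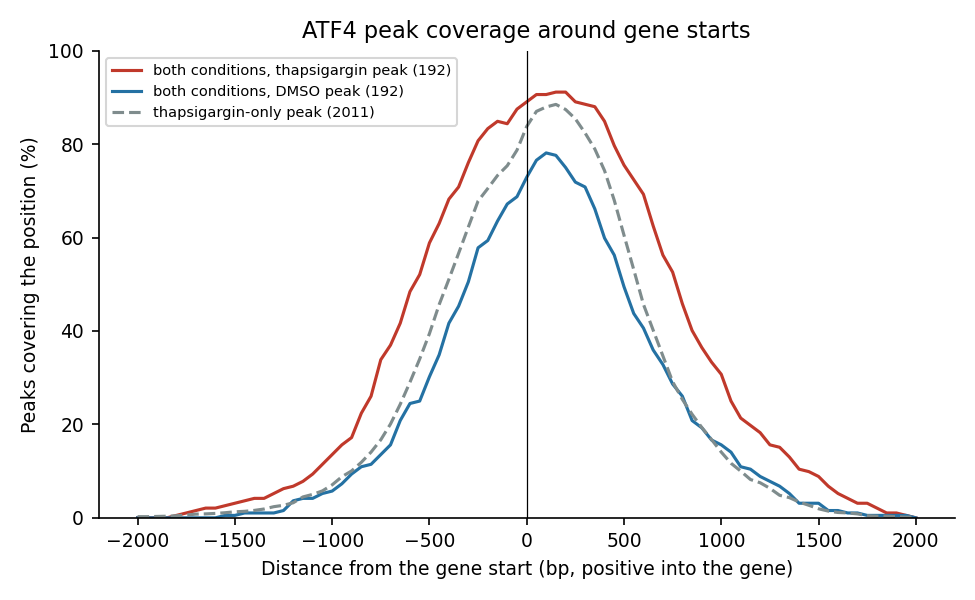
Share of peaks covering each position (y axis, %) by distance from the gene start (x axis, bp, positive into the gene), for 192 regions in DMSO and thapsigargin and for 2011 thapsigargin-only peaks. At the start the shares are 72.9%, 89.1% and 83.8%, and at 500 bp into the gene they are 49.5%, 75.5% and 60.5%.

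Promoter windows were found for 232 of the 276 genes, for 2463 of 2991 genes with a thapsigargin-only peak and for 17274 of all 21631. A gene with several windows counted once, as holding an element if any of them did. A promoter window did not have to lie under a peak. The core TGATGCAA stood in 20 of 232 (8.62%, 5.65% to 12.9%), in 1.10% of the thapsigargin-only promoters and in 0.996% of all. In promoter windows overlapped by the peaks of both conditions it stood at 19 of 201 genes (9.45%, 6.14% to 14.3%). The 9-base form TGATGCAAT stood in 2.59%, 0.162% and 0.208%, and TGATGNAA, which contains the core, in 19.4% (14.8% to 24.97%), 3.13% and 3.95%. For each of these forms the counting intervals of the first and second groups did not overlap. These shares were not used in choosing the regions, but the genes of a group are not replicates, so they are given without a test. Among the listed genes the core stood at Nupr1, Jdp2, Atf3, Chac1, Herpud1, Got1, Slc1a4, Iars, Tars and Yars, whose sites are printed above.

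The other elements fixed earlier gave these shares in the same order of groups. The CRE, TGACGTCA, stood in 3.02% of the promoters, in 5.56% of the thapsigargin-only ones and in 2.58% of all. The palindromic C/EBP site TTGCGCAA stood in 0 of 232, which allows a share of up to 1.63% (Wilson), against 0.487% and 0.249%. The AP-1 site TGANTCA stood in 6.03%, 5.40% and 8.19%, the E-box CACGTG in 12.9%, 10.96% and 9.02%, and the CCAAT box in 52.6%, 47.4% and 42.7%. The ER stress response element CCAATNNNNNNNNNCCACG, which includes a CCAAT box, stood in 0 of 232, against 0.325% and 0.168%. A match is a run of letters and not a shown site of binding, and a missing match says only that these letters are not in the window.

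All 32896 words of 8 bases, strands merged, were then ordered by the share of the 232 promoters minus the share of the thapsigargin-only promoters. TGACGCAA came first, the core TGATGCAA, fixed earlier, was rank 2, TGACGTAA was rank 3 and TGATGTAA was rank 11. Ranks 4 and 5 (ATGACGCA and GTGACGCA) overlap the first word, and ranks 6 to 10 are words rich in G or C. The words were looked at in 3 orderings. By the difference to all promoters the same 4 words held ranks 2, 11, 12 and 34, and by the ratio to the thapsigargin-only share they held ranks 168, 199, 703 and 200, where the 20 leading words stood in 2 to 4 genes each. The 4 words were put together by eye for sharing the pattern TGANGNAA, passing over the 7 words between ranks 3 and 11, so the next shares describe a choice made on these promoters.

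TGACGCAA stood in 36 of 232 promoters (15.5%, 11.4% to 20.7%), in 1.66% of the thapsigargin-only ones and in 0.729% of all. TGACGTAA stood in 8.19%, 1.79% and 0.625%, and TGATGTAA in 6.03%, 0.771% and 0.874%. At least 1 of the 4 words stood in 84 of 232 (36.2%, 30.3% to 42.6%), in 5.28% and in 3.18%. In promoter windows overlapped by the peaks of both conditions, TGACGCAA stood at 38 of 201 genes (18.9%). At least 1 of the 4 words stood there at 85 of 201 (42.3%). The related kinesin genes Kifc1 and Kifc5b both hold TGACGCAA in similar surroundings and count separately here. Some neighbouring genes share 1 site and also count separately. The 36 genes with TGACGCAA had 34 distinct positions, and the 19 with TGACGTAA had 16. Base composition was close in the first groups, with a median GC content of 60.3% and 62.0% against 56.3% in all promoters.

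Promoter windows under peaks away from protein-coding gene ends were also searched, leaving out the genes of the 232 promoters. They may still belong to the thapsigargin-only promoters or to all promoters, which the orderings used. They are therefore not independent of the choice of words. There, at least 1 of the 4 words stood in a window of 13 of 48 genes (27.1%, 16.6% to 41.0%) under both-condition peaks. Under thapsigargin-only peaks it was 33 of 431 genes (7.66%, 5.50% to 10.6%). The core stood in 6 of 48 (12.5%) and 12 of 431 (2.78%), and TGACGCAA in 3 of 48 (6.25%) and 5 of 431 (1.16%). The intervals did not overlap for the 4 words together or for the core, and they overlapped for TGACGCAA. Over all promoters the shares were 3.18% for the 4 words, 0.996% for the core and 0.729% for TGACGCAA.

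**Figure D4:**
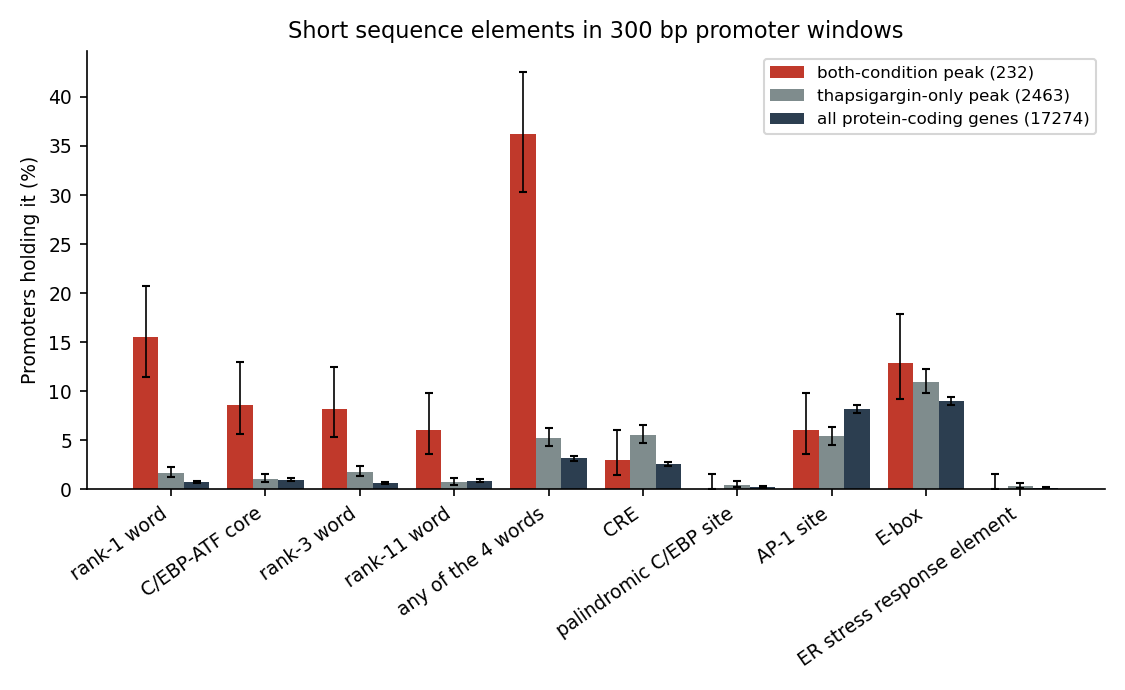
Share of genes (y axis, %) with each element (x axis) in a 300 bp promoter window, for genes with a peak in both conditions, genes with a thapsigargin-only peak and all protein-coding genes, with 95% Wilson intervals. The rank-1, rank-3 and rank-11 words and the 4 words together were chosen after seeing these promoters. The 4 words together stand in 36.2%, 5.28% and 3.18%.

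The 4 words had 84 distinct positions, of which 81 lay inside both peaks. The windows searched lie around gene starts, which most of these peaks cover, so this count is largely set by the search. The median distance of the 81 was 132.5 bp from the thapsigargin centre and 138 bp from the DMSO centre, and 38 lay nearer to the DMSO centre and 43 nearer to the thapsigargin centre. As background, the middle of 91 promoter windows of genes with a word lay a median of 155.5 bp and 196 bp from these centres. For 143 windows of genes without a word the medians were 298 bp and 328 bp. How much of the distance comes from the place of the windows was not tested. The Nupr1 core lay 1.5 bp from the DMSO centre and 46 bp from the thapsigargin centre, and the Trib3 match 5 bp and 9.5 bp. The Bud31 word, at a splicing factor gene, lay 37 bp and 0.5 bp from them. The Yars core lay 407.5 bp and 405 bp from the centres, and the Usp36 word, at a deubiquitinase gene, lay 560 bp and 457 bp from them. Of the 84 positions, 43 were on the strand of the gene and 41 on the other. The 50 bases just before the start held 26 of the 84, the most of any 50-base step of the window.

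**Figure D5:**
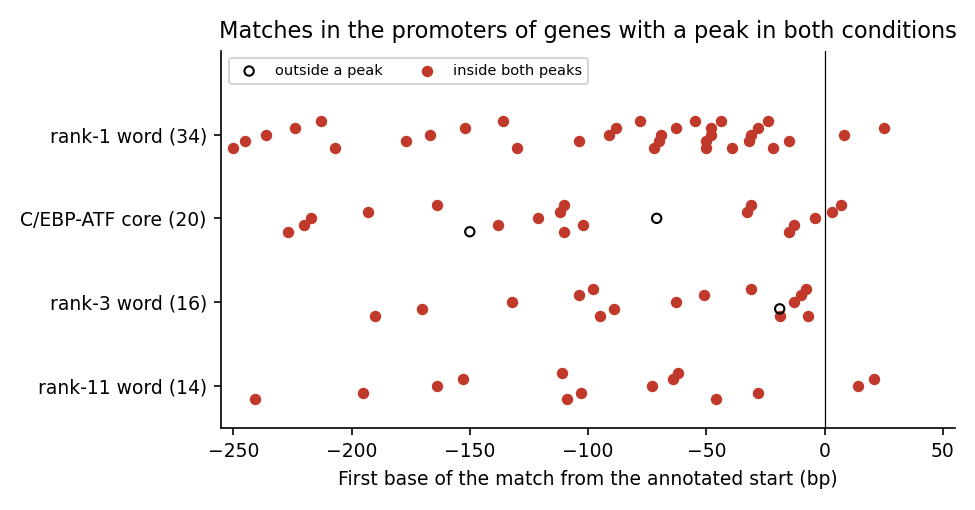
Position of each match (x axis, bp from the annotated start, negative upstream) for the 4 words (rows, with the number of distinct positions). Of 84 positions, 81 lie inside both peaks (filled) and the others lie outside a peak (open).

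Regions with and without a word were alike in width. The 77 regions with 1 of the 4 words in a promoter had a median DMSO width of 884 bp and a ratio of 1.48, and the 123 without had 864 bp and 1.60. A word stood in 12 of 37 listed genes with a promoter (32.4%) and in 72 of 195 unlisted ones (36.9%). The single words differed. The core stood in 10 of 37 listed genes (27.03%, 15.4% to 43.0%) and in 10 of 195 unlisted ones (5.13%, 2.81% to 9.18%). TGACGCAA stood in 2 of 37 (5.41%, 1.495% to 17.7%) and in 34 of 195 (17.4%, 12.8% to 23.4%), among them the ubiquitin ligase gene Ubr4, the checkpoint kinase gene Chek1 and the ciliary gene Bbs5. The intervals did not overlap for the core and overlapped for TGACGCAA. The lists hold textbook ATF4 targets, so the count for the core is no independent evidence. Words at 2 or more places stood in 5 of 232 promoters (2.16%, 0.924% to 4.94%), at Atf3, Chac1, Herpud1, Plekhh3 and Samd8, against 3 of 2463 (0.122%) and 13 of 17274 (0.0753%).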

How the data were processed

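Each deposited list gives only the chromosome and the 2 limits of a peak, without height or score. Per the submitters' processing notes, MACS2 2.2.7.1, Trim Galore 0.6.10 and Bowtie2 were used with mm10. The peak threshold and the handling of replicates are not given in the sources. Depth is unknown, so a longer list may reflect depth or threshold as well as binding.

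Peaks were intersected (at least 1 bp), and centres were measured to gene ends of a RefSeq table (GRCm38.p6, chromosomes 1 to 19 and X). Strand came from RefSeq promoter sequences, which lacked some genes. No test was run, because each condition had 1 list; counts, medians and Wilson intervals (95%) stand in its place. Overlap, gene-end and word searches were tested on simulated data.

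The regions, gene lists and tests were chosen with earlier results of these data known. All regions could be named; given in full were up to 8 per list by thapsigargin width, the 10 widest, the 10 largest and smallest ratios, those wider in DMSO, any with 3 or more genes (there were none), and those nearest the 1 kb limit. Sites were up to 10 within both peaks, listed genes first, by distance from the DMSO centre. The promoters shown whole, and genes named as examples outside these sets, were chosen after their values were seen. Alternatives were other windows, overlap rules, gene types, the wider part of each list and other words. The tools were matplotlib 3.10.9, scipy 1.17.1, pandas 2.3.3, numpy 2.4.6 and Python 3.11.15. Coordinates count from 1. One gene that the naming rule covers is not reported here.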

Additional observations from a re-analysis of the deposited data

How the results depend on the processing

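Of 128 values under alternatives, 94 kept and 34 moved; they are counts, shares and medians of the regions alone, so the comparisons with other peaks were not repeated under them. With centres within 100 bp there were 129 regions and 150 genes, a median width ratio of 1.38 and a centre offset of 39 bp. With the wider part of each list by width there were 122 regions and 150 genes, a ratio of 1.33 and the core in 13.4% of promoters. A window of 500 bp left 31 of the 50 listed genes. Among single lists 19 of 64 values moved. With 500 bp the transporters fell from 5 to 3, and with centres within 100 bp the regulators fell from 5 to 3 and amino acid synthesis from 7 to 3. Regions at 2 or more genes rose to 24.1% with 3 kb and 28.3% with all gene types. The promoter share was 2.59% for TGATGCAAT and 19.4% for TGATGNAA. It was 15.5% for TGACGCAA and 36.2% for any of the 4 words, alternatives chosen after seeing the data, as were the counts per region (77 of 200, 38.5%) and the 3 orderings of words. Shares and medians that moved lay outside the interval of the main value. Counts that moved had changed by a larger factor than any count that kept. Some moves had a direction fixed by the rule and are no check of the results. Keeping only centres within 100 bp can only lower the median offset. Every TGATGCAAT holds the core, so its share cannot exceed that of the core. TGATGNAA and the 4 words include the core, so their shares cannot be below it. The cause of the other moves was not tested, beyond the smaller or larger sets that each rule leaves. No paired analysis was possible because the 2 replicates of a condition are represented by a single list, and for the same reason no replicate could be left out. Depth limits every count here, since a peak missing from the DMSO list may lie below its threshold.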

Other observations

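Non-coding genes also lay at the regions. A lncRNA end was within 1 kb of 31 of 234 regions (13.2%, 9.49% to 18.2%), against 12.6% of thapsigargin-only peaks at gene ends. A tRNA gene, n-TSgct7, lay at the Knl1 region and a miRNA gene, Mir707, at the Akt1s1 region. No snoRNA gene lay at any of the 234, against 10 of 2505. Another thapsigargin peak was centred within 10 kb of 28 of 234 regions (11.97%), against 10.5% of thapsigargin-only peaks at gene ends and 15.8% of both-condition peaks elsewhere.

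On reading the matches, the letters GGAAG were seen directly before several of them. Counted afterwards over matches with 5 bases before them in the window, they preceded 7 of 82 in the promoters of these genes (8.54%, 4.20% to 16.6%) and 9 of 466 in other promoters (1.93%, 1.02% to 3.63%). The pattern was noticed on these same sites, so the count is a description.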
